A study of Mus musculus with 12 samples.

Results

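Neutrophils carry large stores of proteins in their granules and cytosol, and 10 genes for granule proteins, calgranulins and other neutrophil proteins were followed here in mouse gingiva: S100a8 and S100a9 (the calgranulins), Ltf, Camp, Ngp, Chil3, Padi4, Mpo, Elane and Cd177. The genes were chosen by name, and each matched 1 of the 21965 genes in the count table. Gingival tissue was taken from mice under 12 weeks of age in 4 groups of 3 libraries: naive wildtype mice (WT, C57BL/6 in the labels and C57BL/6J in the methods), naive Cybb-/- mice, and WT and Cybb-/- mice 8 days after a silk ligature was tied around a maxillary molar. Cybb encodes the membrane subunit of the Nox2 NADPH oxidase, and its knockout in these mice is not limited to neutrophils. By the design text, 3 mice matched for age and sex were used in each group. The study asked how loss of Nox2 changes the neutrophil response to ligature-induced periodontitis. Library totals lay between 27958819 and 42613423 gene counts.

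The granule genes are transcribed in sequence while a neutrophil matures in bone marrow. Mpo (myeloperoxidase, which makes hypochlorous acid) and Elane (neutrophil elastase, a serine protease) are transcribed first, at the promyelocyte stage, for the primary granules. Ltf (lactoferrin, which binds iron), Camp (the cathelicidin antimicrobial peptide), Ngp (neutrophilic granule protein, a cystatin-like protein), Chil3 (the chitinase-like protein Ym1) and Cd177 (a surface glycoprotein stored in granules) follow at later stages, for the secondary granules. S100a8 and S100a9 encode the subunits of calprotectin, a cytosolic protein that binds zinc and manganese, and Padi4 encodes the peptidylarginine deiminase that citrullinates histones during formation of neutrophil extracellular traps. Mature neutrophils in tissue hold the granule proteins but little of their early transcripts, whereas calgranulin transcripts persist. Ltf is also made by glandular epithelium and the calgranulins by stressed keratinocytes.

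The genes lie at several loci of the mouse genome (GRCm38, GENCODE M21). S100a8 (3:90668978-90670035, plus strand) and S100a9 (3:90692632-90695721, minus strand) are neighbours, 22.6 kb apart. Camp (9:109847379-109849617), Ngp (9:110419747-110423012) and Ltf (9:111019271-111042767) share a stretch of chromosome 9, with 570.1 kb between Camp and Ngp and 596.3 kb between Ngp and Ltf. Chil3 lies on chromosome 3 (106147554-106167564), Padi4 on chromosome 4 (140745865-140774236), Mpo on chromosome 11 (87793581-87804413), Elane on chromosome 10 (79886247-79888215) and Cd177 on chromosome 7 (24743983-24760311). No annotated gene overlapped any of them except Gm11505, which runs antisense to Mpo and is not a row of the count table.

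The 250 bases upstream of the RefSeq start of each gene (GRCm38.p6) were searched on both strands for a C/EBP motif, TTGCNNAA, and a PU.1 motif, GAGGAA, the binding motifs of 2 transcription factor families that drive myeloid genes. All 10 genes had such a window, and no match of one motif overlapped a match of the other. The C/EBP letters were found in 3 of the 10 windows (S100a9, Ltf and Ngp) and in 9.56% of all 32851 promoter windows. The PU.1 letters were found in 5 of the 10 (S100a8, Ltf, Mpo, Elane and Cd177) and in 23.2% of all windows. The 6 windows below are shown because they give a pair of genes for each class of protein: S100a8 and S100a9 for the calgranulins, Camp and Ngp for the secondary granules, and Mpo and Elane for the primary granules. Capitals mark motif matches, on either strand, in sequences read 5′ to 3′ on the gene's own strand.
S100a8: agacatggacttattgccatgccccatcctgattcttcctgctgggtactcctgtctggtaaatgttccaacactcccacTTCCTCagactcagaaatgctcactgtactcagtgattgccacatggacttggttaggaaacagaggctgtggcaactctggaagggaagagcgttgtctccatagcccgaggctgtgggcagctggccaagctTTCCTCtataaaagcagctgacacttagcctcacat
S100a9: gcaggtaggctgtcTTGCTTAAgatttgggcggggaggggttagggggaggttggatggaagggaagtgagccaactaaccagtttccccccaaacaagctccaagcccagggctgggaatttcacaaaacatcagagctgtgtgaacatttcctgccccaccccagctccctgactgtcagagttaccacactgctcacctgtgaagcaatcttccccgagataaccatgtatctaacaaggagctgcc
Camp: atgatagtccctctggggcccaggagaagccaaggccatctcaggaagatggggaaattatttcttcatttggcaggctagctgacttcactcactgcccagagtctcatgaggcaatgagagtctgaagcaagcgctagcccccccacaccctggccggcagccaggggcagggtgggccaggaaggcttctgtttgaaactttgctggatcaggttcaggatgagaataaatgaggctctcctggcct
Ngp: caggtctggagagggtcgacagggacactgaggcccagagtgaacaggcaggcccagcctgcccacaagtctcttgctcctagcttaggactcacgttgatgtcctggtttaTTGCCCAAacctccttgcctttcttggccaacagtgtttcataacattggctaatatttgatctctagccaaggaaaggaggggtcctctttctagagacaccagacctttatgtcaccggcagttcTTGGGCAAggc
Mpo: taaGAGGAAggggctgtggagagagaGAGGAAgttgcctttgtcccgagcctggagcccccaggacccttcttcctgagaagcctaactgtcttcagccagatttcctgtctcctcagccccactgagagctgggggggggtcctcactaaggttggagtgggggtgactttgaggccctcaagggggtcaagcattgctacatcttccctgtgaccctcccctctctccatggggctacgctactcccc
Elane: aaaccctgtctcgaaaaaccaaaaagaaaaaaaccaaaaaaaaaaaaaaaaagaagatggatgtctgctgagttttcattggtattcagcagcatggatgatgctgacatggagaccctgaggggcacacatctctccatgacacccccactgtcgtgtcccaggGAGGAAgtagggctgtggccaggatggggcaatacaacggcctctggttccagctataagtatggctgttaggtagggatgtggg
These windows are chr3:90668821-90669070 (plus strand) for S100a8, chr3:90695722-90695971 (minus) for S100a9, chr9:109849457-109849706 (minus) for Camp, chr9:110419558-110419807 (plus) for Ngp, chr11:87793534-87793783 (plus) for Mpo and chr10:79886062-79886311 (plus) for Elane. S100a8 held a PU.1 match on the minus strand starting 170 and another starting 36 bases before the start, and S100a9 held a C/EBP match starting 236 bases before it. Ngp held C/EBP matches starting 138 and 11 bases upstream, while Camp held neither motif. Mpo held PU.1 matches starting 247 and 224 bases upstream, and Elane held one starting 85 bases upstream. Thus neither motif was present in both S100a8 and S100a9, or in both Camp and Ngp, within these windows.

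Counts of the targeted gene were higher in the libraries labelled Cybb-/- than in WT. Cybb was measured at 5.60, 5.38 and 4.19 CPM (gene counts scaled to a common library size) in naive WT libraries and at 8.41, 15.2 and 12.8 in ligated WT libraries. It was measured at 41.6, 56.3 and 45.9 CPM in the naive and at 56.1, 51.1 and 63.7 CPM in the ligated libraries labelled Cybb-/-. Every library labelled Cybb-/- was thus above every WT library, and counts summed over a whole gene do not show whether the transcript is intact. The direction of every difference between genotypes given here rests on these labels. These groups are called "labelled Cybb-/-" in all comparisons. Further facts of the libraries bear on single genes. Mucous gland transcripts differed strongly between naive WT libraries, with Muc5b, a gel-forming mucin, at 55.6, 2732 and 28942 CPM, against 1610.2 to 4979 CPM in the other 9 libraries. Epithelial transcripts were abundant in all 12 libraries, the summed level of the 7 oral epithelial genes lying between 59274 and 122890.0 CPM.

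The 10 genes differed widely in level. Levels between genes are compared as CPM per kilobase of exon sequence, averaged over 12 libraries. S100a9 stood at 2758 and S100a8 at 1450.5, followed by Ltf at 65.8. The other 7 were all below 1 on this scale: Ngp at 0.862, Chil3 at 0.796, Camp at 0.280, Padi4 at 0.237, Cd177 at 0.128, Mpo at 0.0559 and Elane at 0.0327. Together S100a8 and S100a9 held 91.9% of all counts on the 10 genes, Ltf held 7.93% and the other 7 held 0.152%. Statements on Camp, Mpo, Elane and Cd177 therefore rest on 96, 85, 14 and 165 counts over all libraries, and those on S100a8 on 480465.

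**Figure D1:**
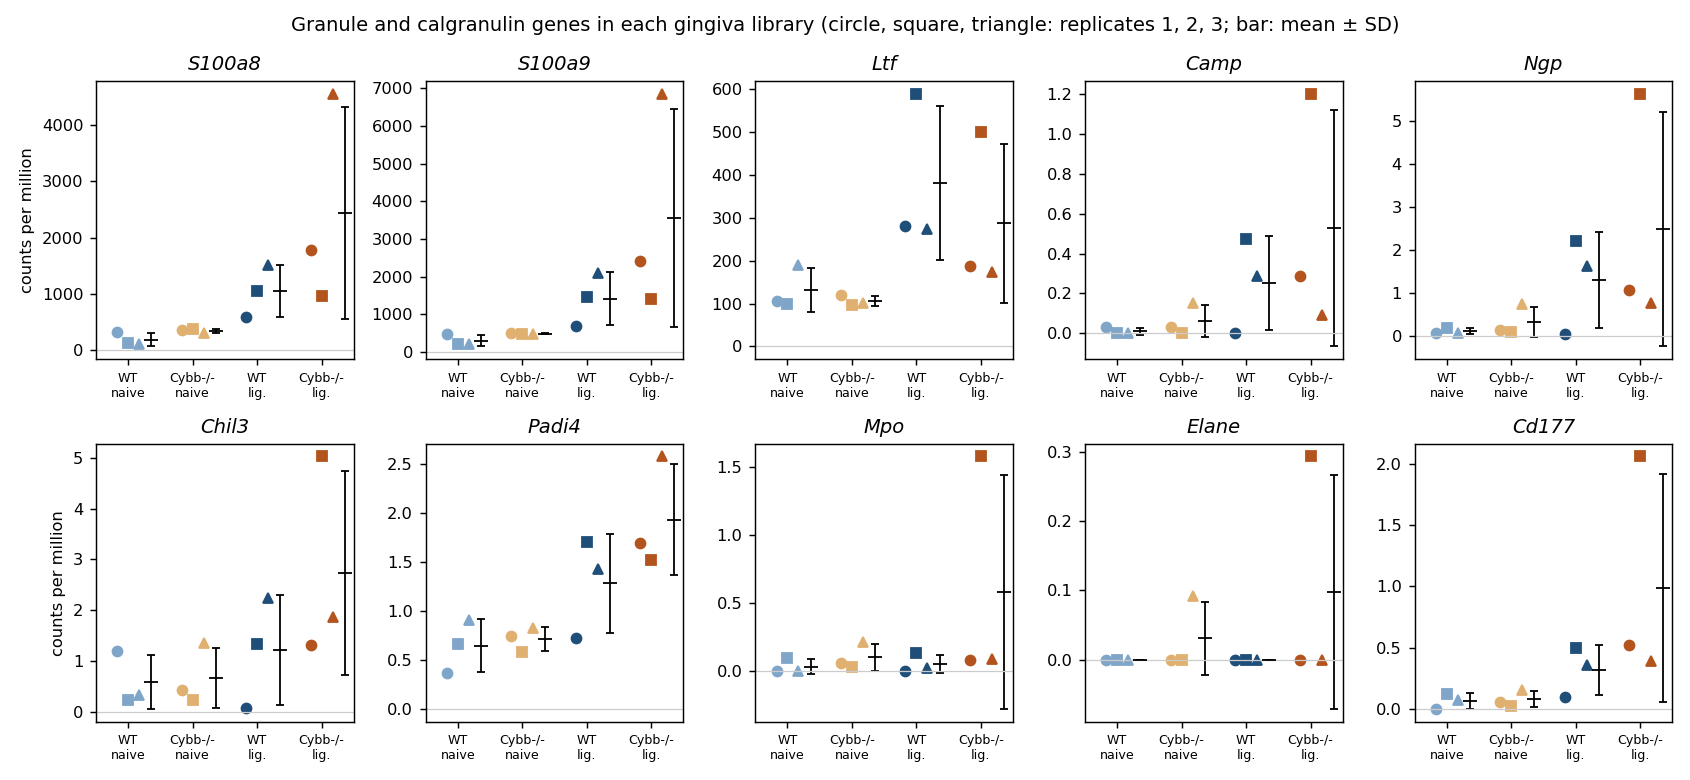
Level of each of the 10 genes in CPM, on a linear axis that differs between panels, in the 4 groups of 3 libraries; circles, squares and triangles are replicates 1, 2 and 3 and the bar is the mean ± SD. S100a8 and S100a9 were highest in ligated replicate 3 labelled Cybb-/-, at 4551 and 6861 CPM, whereas Camp, Ngp, Chil3, Mpo, Elane and Cd177 were highest in ligated replicate 2 labelled Cybb-/-.

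Both calgranulins were higher after ligature, in bulk tissue in which a change in the number of cells of a type and a change in RNA per cell cannot be told apart. In naive WT gingiva S100a8 was measured at 333, 131 and 114 CPM, and in ligated WT gingiva at 597, 1047 and 1509 CPM. In the libraries labelled Cybb-/- it was measured at 361, 380.4 and 306 CPM when naive and at 1784, 966 and 4551 CPM when ligated. Every ligated library lay above every naive library, and the ligated groups overlapped, since replicate 2 labelled Cybb-/- was below WT replicates 2 and 3. The group means were 193 ± 121 (naive WT), 349 ± 38.4 (naive, labelled Cybb-/-), 1051 ± 456 (ligated WT) and 2434 ± 1879 CPM (ligated, labelled Cybb-/-; SD, n = 3 each). S100a8 rose with ligature in WT (log2 fold change 2.45, SE 0.57, 5.45-fold, edgeR adjusted p = 0.0427) and in the mice labelled Cybb-/- (2.80, SE 0.58, 6.96-fold, adjusted p = 0.00955).

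S100a9 followed nearly the same order of libraries as its partner. Its levels were 467, 219 and 198 CPM in naive WT, 694, 1459.8 and 2094 in ligated WT, 508, 483 and 467 in naive libraries labelled Cybb-/- and 2412, 1414 and 6861 in ligated libraries labelled Cybb-/-. Again no naive library reached a ligated one. S100a9 rose with ligature in the mice labelled Cybb-/- (log2 fold change 2.87, SE 0.58, 7.33-fold, adjusted p = 0.00858), and in WT its value of 2.27 (SE 0.56, 4.81-fold) missed the threshold at an adjusted p of 0.0531. The WT calls on this pair are close to the threshold: S100a8 lost its call without ligated WT replicate 2 or 3, or without naive WT replicate 2 or 3 (log2 fold change 2.09 to 3.10 over the 6 libraries left out in turn, adjusted p 0.0481 to 0.174). In the mice labelled Cybb-/- both genes kept their calls without any 1 of the 6 libraries, with log2 fold changes of 1.98 to 3.18 for S100a8 and 1.98 to 3.25 for S100a9. S100a9 is among the genes the study displayed from these same libraries, so its direction is no independent evidence.

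As a share of all gene counts, S100a8 and S100a9 together made up 0.0793%, 0.0327% and 0.0306% in naive WT, and 0.0798%, 0.0856% and 0.0765% in naive libraries labelled Cybb-/-. They made up 0.131%, 0.263% and 0.387% in ligated WT libraries and 0.441%, 0.235% and 1.17% in ligated libraries labelled Cybb-/-, where S100a9 ranked 7th of all genes in replicate 3. The 95% Wilson intervals of single libraries were narrow, for example 1.170% to 1.177% in that library, and cover counting error only. The share went from 0.0475 ± 0.0275 to 0.260 ± 0.128% in WT and from 0.0806 ± 0.00457 to 0.617 ± 0.493% in the mice labelled Cybb-/-, without overlap in either. With 3 against 3 libraries an exact two-sided permutation test cannot go below 0.1, which is the p of both (0.2 adjusted over 4 pairs). Between the ligated groups the exact p was 0.3 and between the naive groups 0.2 (adjusted 0.3 and 0.267). The ratio of S100a9 to S100a8 counts stayed between 1.16 and 1.73 in all 12 libraries. Its means were 1.60 ± 0.173 in naive WT, 1.32 ± 0.132 in ligated WT, 1.40 ± 0.127 in naive and 1.44 ± 0.0802 in ligated libraries labelled Cybb-/-, and every naive WT library was above every ligated WT library, by little (1.40 against 1.39 at the nearest). Exact two-sided permutation tests gave p of 0.1 for the WT pair and 0.3 to 0.7 for the other pairs (adjusted 0.4 to 0.7), and with a smallest p of 0.1 could not pass the threshold.

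**Figure D2:**
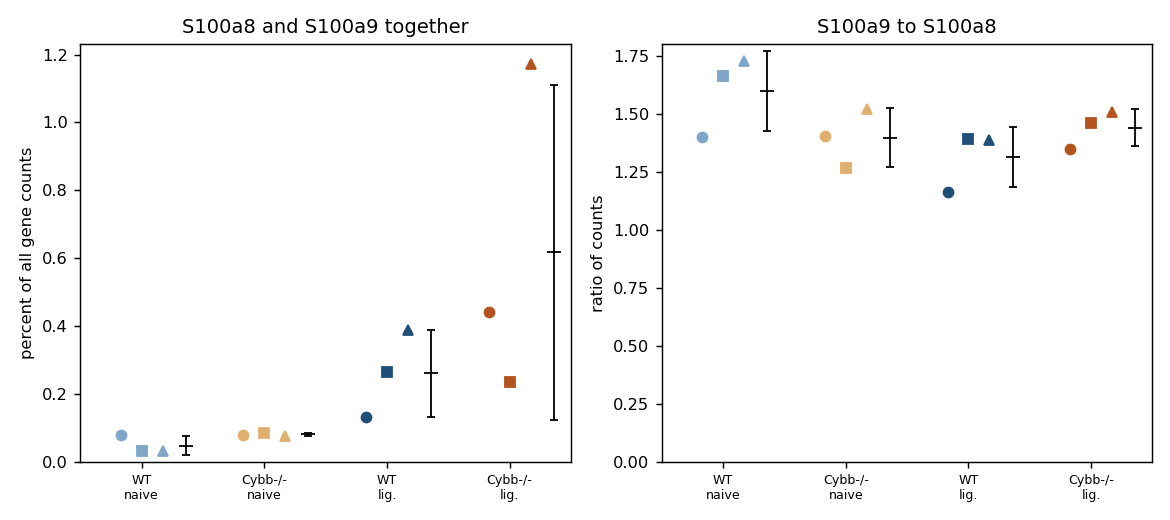
Left, percent of all gene counts on S100a8 and S100a9; right, ratio of S100a9 to S100a8 counts, in each library (circle, square and triangle are replicates 1, 2 and 3; bar, mean ± SD). The share ran from 0.0306% to 1.17% while the ratio stayed between 1.16 and 1.73.

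Among the secondary granule genes, Ltf was the only one at a high level. It was measured at 106, 98.9 and 189.8 CPM in naive WT and at 282, 590.1 and 275 CPM in ligated WT. In the libraries labelled Cybb-/- it was measured at 120.3, 97.5 and 101 CPM when naive and at 187, 501 and 173 CPM when ligated. Replicate 2 was far above the other ligated libraries in both genotypes, and no naive library reached a ligated library of its own genotype. The rise passed the test in the mice labelled Cybb-/- (log2 fold change 1.43, SE 0.43, adjusted p = 0.0485) and not in WT (1.54, SE 0.43, adjusted p = 0.0765). The call in the mice labelled Cybb-/- held only without ligated replicate 3, and was lost without any 1 of the other 5 libraries (adjusted p 0.0591 to 0.144). The value was 0.76 without ligated replicate 2, and without naive WT replicate 3 the WT value was 1.90 and passed (adjusted p = 0.0479).

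Ltf was highest in libraries other than those with the most calgranulin transcripts. Dcpp3, a secreted protein of salivary glands chosen for display after its values were seen, was measured at 66.2, 313 and 21.6 CPM in ligated WT and at 105, 143 and 22.1 CPM in ligated libraries labelled Cybb-/-, with its highest values in the same pair of libraries as Ltf. Over the 6 ligated libraries Pearson's r of log2 CPM was 0.72 between Ltf and Dcpp3, −0.63 between Ltf and S100a8 and −0.62 between Ltf and Csf3r, the G-CSF receptor of neutrophils. Over all 12 libraries these were 0.67, 0.47 and 0.47. The points share library composition and the values are given as a description. The summed gland list was at 2541 to 5877 CPM in the ligated libraries and 67.4 to 34187 CPM in the naive ones. Its lowest ligated value was in replicate 2 labelled Cybb-/-, the library of that group with the most Ltf. Muc5b was also lowest there among the ligated libraries (1825 CPM). In ligated WT replicate 2 the list was at 4146 CPM, between the other ligated WT libraries. The gland gene Dmbt1, like Dcpp3, was highest among ligated libraries in replicate 2 of each genotype (104 CPM in WT, 93.6 CPM labelled Cybb-/-). Dcpp1 and Dcpp2 were highest in ligated WT replicate 2. The part of the gland list in the Ltf values was not tested. With ligature in WT, where Ltf was at 1.54, 7 of the 11 gland genes were lower (median −0.74), and Dcpp3 was among the 4 that were higher (1.38, SE 1.29, adjusted p = 0.594). In the mice labelled Cybb-/-, where Ltf was at 1.43, 10 of the 11 gland genes were higher (median 1.18), Dcpp3 among them (2.05, SE 1.33, adjusted p = 0.348).

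Camp, Ngp and Chil3 were scarce. Ngp was counted 2, 6 and 2 times in naive WT libraries and 2, 84 and 63 times in ligated WT, 5, 3 and 24 times in naive and 41, 211 and 33 times in ligated libraries labelled Cybb-/-. Ligated WT replicate 1 was as low as the naive libraries, so the WT groups overlapped, while the groups labelled Cybb-/- did not. The log2 fold changes with ligature were 3.53 (SE 1.30, adjusted p = 0.159) in WT and 2.96 (SE 1.13, adjusted p = 0.110) in the mice labelled Cybb-/-. The latter was 1.52 without ligated replicate 2 and 4.41 without naive replicate 3 labelled Cybb-/-. DESeq2 called both comparisons (adjusted p = 0.0229 and 0.0328).

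Camp was counted once in the 3 naive WT libraries together, against 0, 18 and 11 times in ligated WT. The ratio of the pooled levels was 22.8, with an exact 95% interval of 3.78 to 930.8 that covers counting error only, and the fitted log2 fold change of 4.15 (SE 1.82, adjusted p = 0.231) depends on the prior count and was 6.20 without naive WT replicate 1 and 3.34 without ligated WT replicate 2. In the libraries labelled Cybb-/- Camp was counted 1, 0 and 5 times when naive and 11, 45 and 4 times when ligated (3.08, SE 1.27, adjusted p = 0.140), and the value was 1.61 without ligated replicate 2 and 4.90 without naive replicate 3. Both pairs of groups overlapped.

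Chil3 was counted 39, 7 and 9 times in naive WT, 3, 51 and 86 times in ligated WT, 15, 8 and 44 times in naive and 50, 188 and 82 times in ligated libraries labelled Cybb-/-. Ligated and naive groups overlapped in both genotypes. Its log2 fold changes were 1.05 (SE 0.99, adjusted p = 0.597) in WT and 2.04 (SE 0.97, adjusted p = 0.198) in the mice labelled Cybb-/-. With 1 library left out they ranged from 0.26 (without ligated replicate 3) to 2.14 (without naive replicate 1) in WT, and from 1.26 (without ligated replicate 2) to 3.05 (without naive replicate 3) in the mice labelled Cybb-/-. Chil3 counts are uncertain, because the transcripts of Chil3 and its neighbour Chil4 are 94.4% identical over 1538 aligned bases, and 125 of the 1465 windows of 75 bases in Chil3 also occur in Chil4. Chil4 was measured at 60.2 to 1849 CPM in the same libraries, far above Chil3 (0.0747 to 5.03 CPM), and was highest in naive WT replicate 1. The levels of both genes were at r = 0.24 (rho 0.12) over the 12 libraries and at −0.91 over the 6 ligated ones.

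Mpo and Elane, the primary granule genes, were too scarce for the test, and neither passed the filter on low counts. Mpo was counted 0, 3 and 0 times in naive WT and 0, 5 and 1 times in ligated WT. In the libraries labelled Cybb-/- it was counted 2, 1 and 7 times when naive and 3, 59 and 4 times when ligated. A single library, ligated replicate 2 labelled Cybb-/-, thus held 69.4% of the Mpo counts of all 12 libraries. Elane was counted 11 times in that library, 3 times in naive replicate 3 labelled Cybb-/- and 0 times in the other 10, where a count of 0 allows a level of up to 0.0685 to 0.109 CPM depending on the library. Mpo is also among the genes that the study displayed from these libraries.

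Cd177 was counted 0, 4 and 2 times in naive WT, 4, 19 and 14 times in ligated WT, 2, 1 and 5 times in naive and 20, 77 and 17 times in ligated libraries labelled Cybb-/-. The ligated libraries labelled Cybb-/- were all above the naive ones, and Cd177 rose there (log2 fold change 3.60, SE 0.92, adjusted p = 0.0256). In WT, ligated replicate 1 at 0.0996 CPM was below naive replicate 2 at 0.126 CPM, and the value was 2.22 (SE 1.03, adjusted p = 0.254). The call was lost without ligated replicate 2 labelled Cybb-/- (2.49, adjusted p = 0.0615) and without naive replicate 1 or 2 of that genotype (3.43 and 3.20, adjusted p = 0.0886 and 0.0923).

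Padi4 was scarce as well. It was measured at 0.365, 0.664 and 0.911 CPM in naive WT, 0.722, 1.70 and 1.43 in ligated WT, 0.750, 0.583 and 0.824 in naive and 1.70, 1.52 and 2.58 in ligated libraries labelled Cybb-/-. WT groups overlapped through ligated replicate 1, and the groups labelled Cybb-/- did not. Padi4 rose in the mice labelled Cybb-/- (log2 fold change 1.43, SE 0.40, adjusted p = 0.0380), and its WT value was 0.99 (SE 0.41, adjusted p = 0.206). The call held only without ligated replicate 2, and was lost without any 1 of the other 5 libraries (1.16 to 1.53, adjusted p 0.0834 to 0.158). The 3 other deiminases tested, Padi1, Padi2 and Padi3, had no call in either comparison. Padi1, an epidermal deiminase, was the most abundant, with means of 111 and 64.9 CPM in naive and ligated WT and log2 fold changes of −0.77 in WT and −0.63 in the mice labelled Cybb-/- (adjusted p = 0.255 and 0.283). Padi2 was at −0.80 and 0.99 (adjusted p = 0.598 and 0.447) and Padi3 at 0.40 and −0.04 (adjusted p = 0.609 and 0.953).

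**Figure D3:**
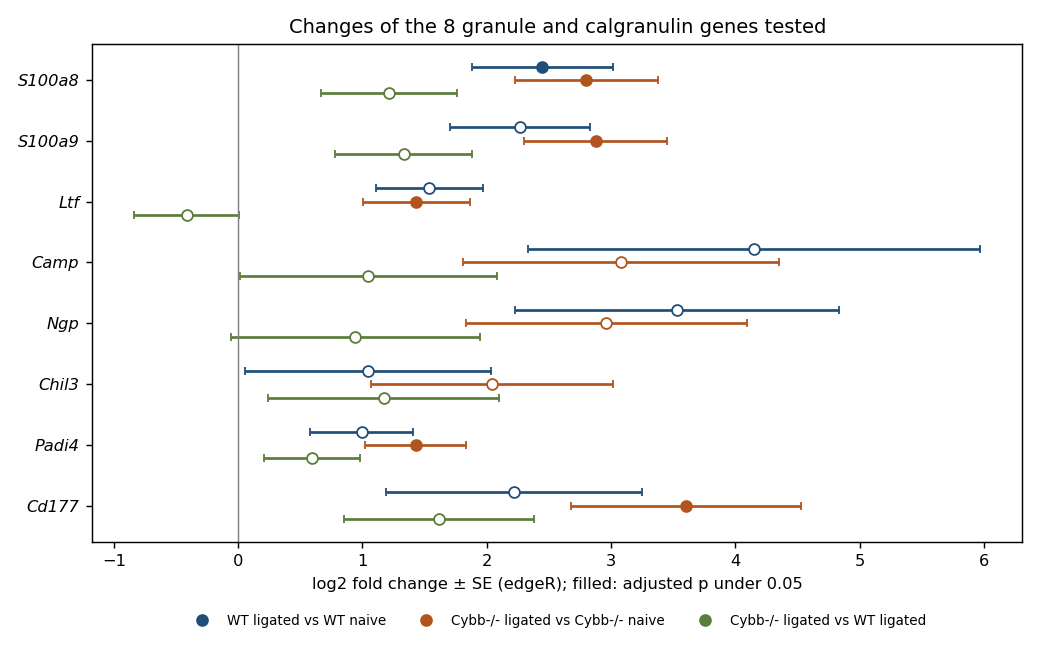
Log2 fold changes (edgeR, ± SE) of the 8 genes that passed the filter, for ligature in WT, ligature in the mice labelled Cybb-/- and ligated libraries labelled Cybb-/- against ligated WT; filled points have an adjusted p under 0.05. All 16 ligature values are above 0, with 1 call in WT and 5 in the mice labelled Cybb-/-, and no genotype value has a call.

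In all, 1 of the 8 genes tested rose with ligature in WT (S100a8), where 2.31% of all 15046 genes tested were called higher. In the mice labelled Cybb-/- 5 rose (S100a8, S100a9, Ltf, Padi4 and Cd177), where 9.95% of all genes were called higher. None fell in either. The median log2 fold change of the 8 was 2.24 in WT and 2.84 in the mice labelled Cybb-/-, against −0.03 over all genes tested in each. Of all 10 genes, 3 were higher in every ligated than in every naive library in WT (S100a8, S100a9 and Ltf), a pattern of 13.3% of all genes tested, and 6 were so in the mice labelled Cybb-/- (these 3 with Ngp, Padi4 and Cd177), against 18.5% of all genes. The filter on low counts keeps a scarce gene when it is high in 1 group, so these shares describe the genes that passed and not all 10. The count in WT was 0 without ligated replicate 2, without ligated replicate 3 or without naive replicate 2, and 4 by DESeq2 (Ngp, Ltf, S100a8 and S100a9). In the mice labelled Cybb-/- it was 2 without naive replicate 1 or 2, 3 without ligated replicate 1 or 2 or naive replicate 3, 4 without ligated replicate 3, and 6 by DESeq2, which added Ngp. DESeq2 also called more genes over the whole table, 866 of 15357 higher in WT and 1887 of 15705 higher in the mice labelled Cybb-/-.

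Comparison of the ligated groups asked whether these transcripts differed between genotypes during inflammation. No gene of the 8 tested was called, and neither was any by DESeq2. A single gene of all 15046 was called in either direction, Cybb itself, which is 0.00665% of them, and 18 were called by DESeq2. S100a8 was 2.32-fold (log2 fold change 1.21, SE 0.55) and S100a9 2.52-fold (1.33, SE 0.55) higher in the ligated libraries labelled Cybb-/- than in ligated WT, with unadjusted p of 0.0471 and 0.0322 and adjusted p of 1.00. These were the 2 genes of the 8 with an unadjusted p under 0.05, as were 503 of all genes tested. Without replicate 3 of the ligated libraries labelled Cybb-/- the values were 0.39 and 0.43. Cd177 was at 1.62 (SE 0.77), Chil3 at 1.17 (SE 0.93), Camp at 1.05 (SE 1.03), Ngp at 0.94 (SE 1.00), Padi4 at 0.59 (SE 0.39) and Ltf at −0.41 (SE 0.42). Without replicate 2 of the ligated libraries labelled Cybb-/- Cd177 was at 0.50 and Chil3 at 0.39. The median of the 8 was 1.11, against 0.01 over all genes. None of the 10 was higher in all 3 ligated libraries labelled Cybb-/- than in all 3 ligated WT libraries, a pattern that 5.0% of all genes tested showed.

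In naive gingiva no gene of the 8 was called between genotypes, where again 0.00665% of all genes were (Cybb), 2 by DESeq2 and 306 at an unadjusted p under 0.05. S100a8 was at a log2 fold change of 0.86 (SE 0.54) and S100a9 at 0.72 (SE 0.54) in naive libraries labelled Cybb-/- against naive WT, the overlap coming from naive WT replicate 1, without which the values were 1.51 and 1.22. Camp was at 2.12 (SE 2.26) and Ngp at 1.51 (SE 1.41), and without naive replicate 3 labelled Cybb-/- they were at 0.30 and 0.061. Without naive WT replicate 1 Camp was at 4.17. Cd177 was at 0.24 (SE 1.24), Chil3 at 0.18 (SE 1.02), Padi4 at 0.16 (SE 0.42) and Ltf at −0.31 (SE 0.42). The difference between genotypes in the response to ligature was tested as an interaction. It called none of the 8 genes and 0.0% of all genes (0 by edgeR and 0 by DESeq2, with 342 at an unadjusted p under 0.05), and its values were 0.35 (SE 0.76) for S100a8, 0.61 (SE 0.76) for S100a9, −0.11 (SE 0.60) for Ltf and 1.38 (SE 1.53) for Cd177. Camp was at −1.07 (SE 2.30), Ngp at −0.57 (SE 1.69), Chil3 at 0.99 (SE 1.38) and Padi4 at 0.43 (SE 0.57). The larger number of genes called in the mice labelled Cybb-/- is thus not a tested difference between the genotypes.

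The genes did not peak in the same library. Of the 10, 6 had their highest level in ligated replicate 2 labelled Cybb-/- (Camp, Ngp, Chil3, Mpo, Elane and Cd177), 3 in ligated replicate 3 labelled Cybb-/- (S100a8, S100a9 and Padi4) and 1 in ligated WT replicate 2 (Ltf). In replicate 2 Mpo stood 7.39 times above the next library, Cd177 3.94 times, Ngp 2.57 times, Camp 2.56 times and Chil3 2.25 times. The same library had the lowest S100a8 and S100a9 of the 3 ligated libraries labelled Cybb-/-. It held 75.0% of the Camp, 74.0% of the Ngp, 89.4% of the Mpo and 67.5% of the Cd177 counts of its group, but 11.9% of the S100a8 and S100a9 counts. Without it the group mean of Ngp was 0.912 CPM, against 2.49 with it and 1.29 in ligated WT, and that of Camp was 0.189 CPM, against 0.527 with it and 0.252 in ligated WT, so that the order of the ligated groups turned for both (log2 fold changes of −0.50 and −0.42 without it).

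Some other transcripts of neutrophil precursors were highest in the same library. Prtn3 (proteinase 3), Ctsg (cathepsin G) and Ms4a3, all markers of promyelocytes and other granulocyte precursors, were counted 10, 22 and 10 times there, against 0 to 4, 0 to 3 and 0 to 2 times in each other library. Cebpe, counted once there and 2 times each in ligated replicate 1 and naive replicate 3 labelled Cybb-/-, and Bpi, with 2 counts in all and 0 there, were not. Ly6g, which marks maturing and mature neutrophils, was counted 66 times there and 22 times or fewer elsewhere. Alas2, an erythroid gene of marrow and blood, was at 79.4 CPM there and 123 CPM in ligated WT replicate 3, where Mpo was counted once, and at 4.75 to 56.6 CPM in the others. The part of blood or marrow cells in these values was not tested, and these genes were singled out after their values were seen.

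**Figure D4:**
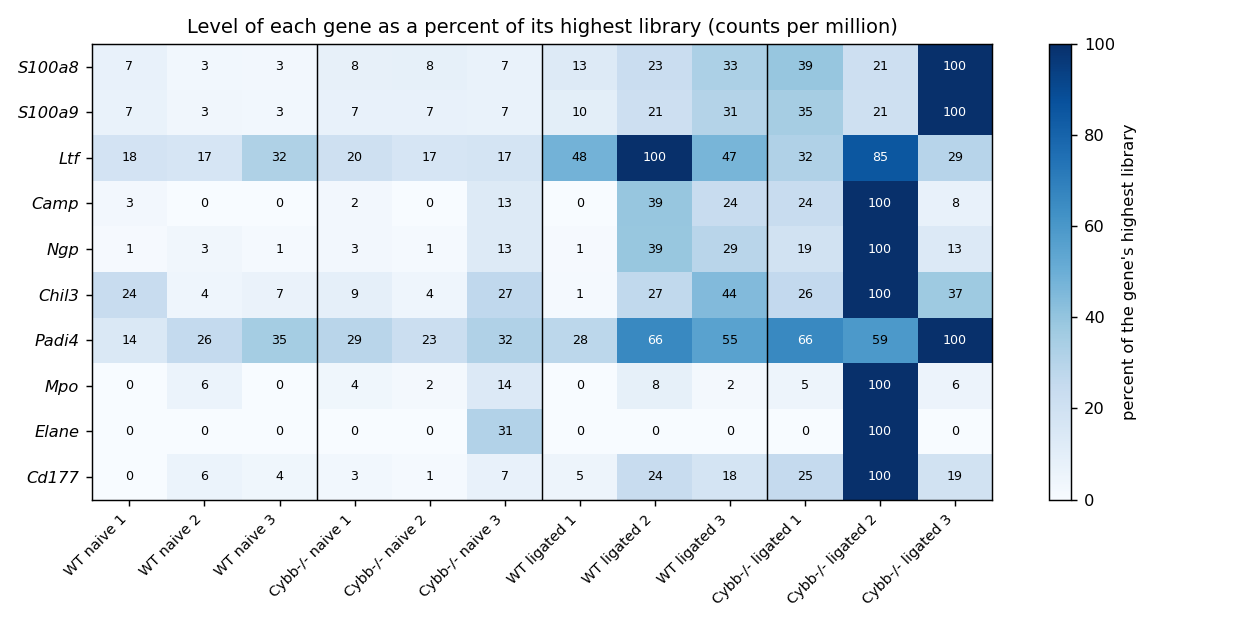
Level of each of the 10 genes (rows) in each of the 12 libraries (columns) as a percent of the gene's highest library, from CPM. S100a8, S100a9 and Padi4 reached 100 in ligated replicate 3 labelled Cybb-/-, 6 genes did so in ligated replicate 2 of that group, and Ltf in ligated WT replicate 2.

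Correlations between the genes over the 12 libraries are given as a description, with points that share depth and library composition, and they do not follow the division by highest library throughout. S100a8 and S100a9 ran together most closely (Pearson's r of log2 CPM 1.00, Spearman's rho 0.99), also within the 6 ligated (r = 1.00) and the 6 naive libraries (r = 0.99). Camp and Ngp were at r = 0.97 (rho 0.87; 0.97 in ligated and 0.82 in naive libraries) Ngp and Cd177 at 0.93 (rho 0.87), Camp and Cd177 at 0.89 (rho 0.79), Camp and Chil3 at 0.87 (rho 0.87) and Mpo and Elane at 0.89 (rho 0.66), where the last pair rests on few counts. Between S100a8 and Ngp r was 0.61 over the 12 libraries, but 0.18 over the 6 ligated and 0.10 over the 6 naive ones. S100a8 and Padi4 were at 0.78, with 0.87 in ligated and −0.44 in naive libraries, and Padi4 was closer to Cd177 (0.83, rho 0.85) and about as close to Ngp (0.77). Ltf was at 0.74 with Cd177 and 0.70 with Camp. Among the genes highest in replicate 2, Elane was at 0.55 with Chil3, 0.58 with Ngp and 0.59 with Cd177. S100a8 and Mpo were at 0.24, and S100a8 and Elane at 0.04.

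The genes outside the 10 whose pattern over 12 libraries was most like S100a8 were Hacd4 (r = 0.97), Uox (0.97) and A630023A22Rik (0.97), all highest in ligated replicate 3 labelled Cybb-/-. Uox, the urate oxidase gene, ranged from 9.84 to 169 CPM. Those most like Ngp were Ly6c2 (r = 0.89), a surface antigen of monocytes and neutrophils, Hfe (0.89) and Clca3a1 (0.88). Those most like Elane were H2-T22 (0.94), H2-D1 (0.92) and Tap1 (0.91), genes of MHC class I presentation. These 6 were highest in ligated replicate 2 labelled Cybb-/-, and H2-D1 ranged from 232 to 987 CPM. Elane itself was counted only there (11 times) and in naive replicate 3 labelled Cybb-/- (3 times). Its r values therefore mostly reflect which genes were high in that ligated library.

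**Figure D5:**
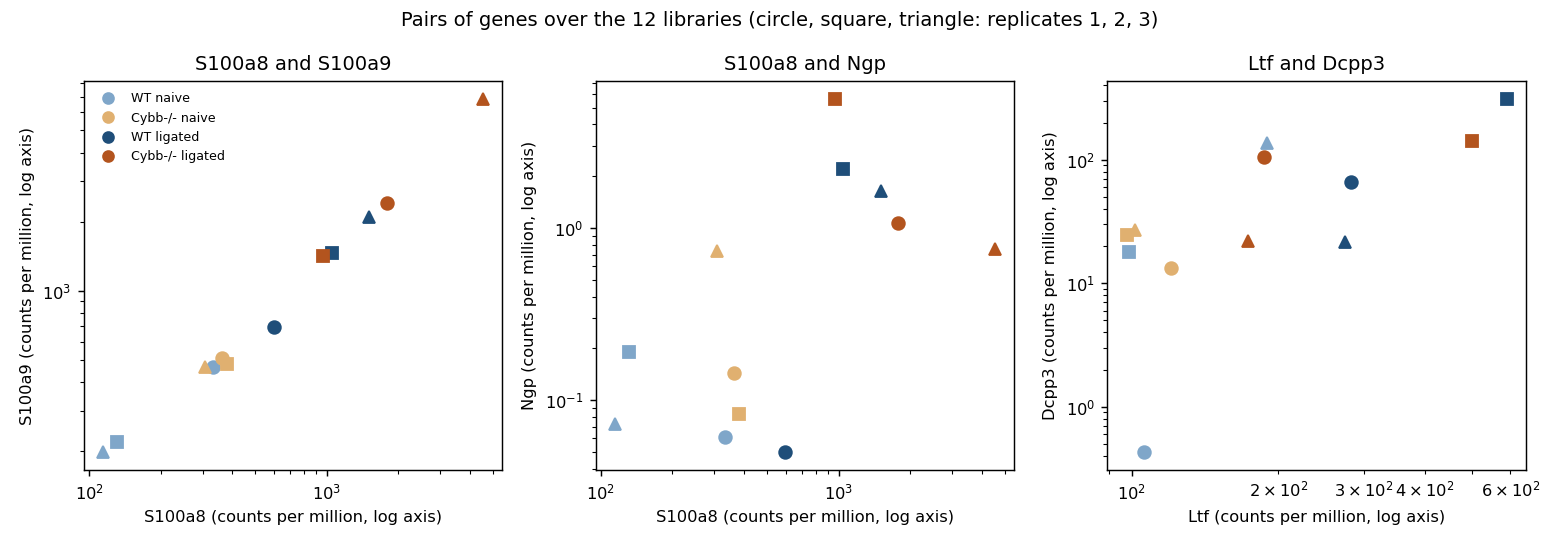
Levels of S100a8 with S100a9, S100a8 with Ngp, and Ltf with Dcpp3 in the 12 libraries (CPM, both axes logarithmic; circle, square and triangle are replicates 1, 2 and 3). S100a8 and S100a9 lie on a line, whereas Ngp was highest where S100a8 was lowest among the ligated libraries labelled Cybb-/-, and Ltf and Dcpp3 were both highest in replicate 2 of the ligated groups.

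Further granule proteins, regulators and binding partners were examined as lists. Of 14 other granule protein genes 10 passed the filter, of which 1 rose in WT and 7 in the mice labelled Cybb-/- (median log2 fold changes 0.82 and 1.63). The most abundant were Lyz2, lysozyme of myeloid cells (1.79, SE 0.27, adjusted p = 0.00276 in the mice labelled Cybb-/-; 0.94, adjusted p = 0.0769 in WT), Mmp9, the gelatinase of tertiary granules (2.00, adjusted p = 0.0297; 0.68, adjusted p = 0.503) and Adam8, a membrane protease (1.12, adjusted p = 0.0230; 0.55, adjusted p = 0.297). The single WT call was Mmp25, a membrane metalloproteinase of neutrophils (1.73, adjusted p = 0.0340), named after its values were seen. Prtn3, Ctsg, Fcnb and Bpi did not pass the filter, with 20, 28, 7 and 2 counts over all libraries. None of the 10 was called between the ligated groups.

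Of the 4 transcription factors of granule genes, Cebpe, which drives the secondary granule genes, was counted 0 to 2 times in any library and was not tested. Cebpa, which also acts in epithelium, fell with ligature in WT (log2 fold change −0.63, SE 0.11, adjusted p = 0.0155) and in the mice labelled Cybb-/- (−0.45, SE 0.11, adjusted p = 0.0188). Spi1, which encodes PU.1, rose in the mice labelled Cybb-/- (1.50, SE 0.37, adjusted p = 0.0229) and was at 1.03 in WT (adjusted p = 0.156). Gfi1, a repressor needed for granulocyte maturation, was at 1.57 in WT and 0.61 in the mice labelled Cybb-/- (adjusted p = 0.112 and 0.400).

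Receptors, partners and inhibitors of the granule and calgranulin proteins comprised 11 genes, all tested, of which 2 rose in WT and 5 in the mice labelled Cybb-/- (medians 0.82 and 0.77). The most abundant were Slpi, an elastase inhibitor of secretions (−0.58 in WT and −0.59 in the mice labelled Cybb-/-, adjusted p = 0.233 and 0.155), Bsg, a receptor of S100A9 (−0.04 and −0.06, adjusted p = 0.918 and 0.832) and Serpinb1a, an inhibitor of neutrophil serine proteases (0.30 and 0.33, adjusted p = 0.427 and 0.296). The WT calls, named after their values were seen, were Pecam1, which binds CD177 (0.97, adjusted p = 0.0246), and Itgb2, the beta-2 integrin chain (1.07, adjusted p = 0.0355). Both rose also in the mice labelled Cybb-/- (1.31 and 1.68, adjusted p = 0.00234 and 0.00224), with Cp, Itgam and Fpr2. The toll-like receptor Tlr4 and the receptor Ager, both bound by calgranulins, were at 0.31 and 0.96 in WT and at 0.41 and 0.77 in the mice labelled Cybb-/-, with no call. Of the chitinase-like genes Chil4, Chit1, Chil1 and Chia1, 3 passed the filter and none was called in either comparison. Chil4 was at −1.31 in WT and −0.02 in the mice labelled Cybb-/- (adjusted p = 0.407 and 0.990), Chit1 at −0.15 and −0.12 (0.791 and 0.794) and Chil1 at −0.97 and 1.10 (0.318 and 0.189), and Chia1 was at a mean of 0.109 CPM or less in each group.

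Markers of the cells that could carry these transcripts were examined as further lists. Of 14 neutrophil identity genes, 0 were called in WT and 11 rose in the mice labelled Cybb-/- (median log2 fold changes 1.80 and 2.62). Csf3r was measured at 5.51 to 9.73 CPM in naive WT, 12.3 to 32.9 in ligated WT, 3.44 to 18.5 in naive and 34.5 to 83.5 in ligated libraries labelled Cybb-/- (1.58 in WT, adjusted p = 0.135; 2.48, SE 0.56, adjusted p = 0.0146 in the mice labelled Cybb-/-), and Cxcr2, a chemokine receptor of neutrophils, rose in the latter as well (2.16, SE 0.33, adjusted p = 0.00279) and was at 0.86 in WT (adjusted p = 0.165). The most abundant gene of that list, Asprv1, was at 1698 CPM in naive and 1267 CPM in ligated WT and had no call in either comparison (−0.42 and −0.61, adjusted p = 0.498 and 0.239). It is also an epidermal gene. Ly6g was at 0 to 0.0866 CPM in all naive libraries, in which S100a8 was at 114 CPM or more. Of 12 monocyte and macrophage genes 2 rose in WT (Csf1r and Adgre1) and 10 in the mice labelled Cybb-/- (medians 0.58 and 1.48), where Csf1r was at 1.62 and Ccr2 at 1.62 (adjusted p = 0.00185 and 0.0116). In WT these were at 0.84 and 1.10 (adjusted p = 0.0405 and 0.104).

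Epithelial sources of calgranulin transcripts were also listed. None of the 9 genes of stressed epithelium was called in either comparison (medians −0.20 in WT and −0.06 in the mice labelled Cybb-/-), and the most abundant, Krt6a, Krt6b and Krt16, were at −0.23, 0.37 and −0.20 in WT and at −0.11, 0.49 and −0.30 in the mice labelled Cybb-/- (adjusted p 0.125 to 0.753). Of the 7 oral epithelial genes (medians −0.35 and −0.41), Krt10 fell in both (−1.54 and −1.86, adjusted p = 0.0296 and 0.00469), named after its values were seen, and the most abundant, Krt13, Krt76 and Krt4, had no call (log2 fold changes −0.02 to −0.89). Of the 11 gland genes (medians −0.74 and 1.18) 0 were called in WT and 1 rose in the mice labelled Cybb-/-, Lpo, the lactoperoxidase gene (4.41, adjusted p = 0.00433). Muc5b, Bpifb2 and Pigr, the most abundant, were at −1.62, −1.79 and −0.74 in WT and at 0.53, 0.34 and 1.40 in the mice labelled Cybb-/-, with no call. Of 8 marrow precursor genes 4 passed the filter and none was called, with Alas2 and Hemgn at 1.38 and 0.42 in WT and at −0.40 and 0.08 in the mice labelled Cybb-/-. None of these lists had a call between the ligated groups. There 14 of 14 neutrophil identity genes (median 1.56) and 11 of 12 monocyte and macrophage genes (median 0.51) were higher in the libraries labelled Cybb-/-, beside a median of 0.01 over all genes. So were 9 of 9 stressed epithelial genes (median 0.16) and 4 of 7 oral epithelial genes (median 0.01). Of the gland genes 3 of 11 were higher (median −0.23), and of the marrow precursor genes 1 of 4 tested (median −0.44). The part of each cell type in the levels of the 10 genes was not tested.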

How the data were processed

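RNA from 12 gingival samples was sequenced with a stranded mRNA kit by the authors, who aligned reads to GRCm38 and deposited raw counts per Ensembl gene. The supplementary methods name STAR and featureCounts, and the submitters' processing notes name HTSeq 0.10.0 and FastQC 0.10.1. The deposited counts carry HTSeq in their name, and the difference from the supplementary methods is not explained. Symbols came from GENCODE M21 (21939 of 21965 genes matched), and list symbols also through RefSeq synonyms. The 10 genes and the 11 other lists were chosen with earlier results of these data known. Named beside the 10 were the 3 most abundant genes of each list, and every gene of lists of up to 5, except a few that are not reported here. Counts were filtered (filterByExpr, 15046 genes kept), scaled by TMM and fitted in all 12 libraries by edgeR 4.0.16 (quasi-likelihood F test, R 4.3.3), with Benjamini-Hochberg adjustment over all genes tested and a threshold of 0.05. SE was the log2 fold change divided by the square root of F. Exact permutation tests used scipy 1.17.1. Correlations used log2 CPM with a prior count of 2. Alternatives were DESeq2 1.42.0, other scalings and filters, a robust fit, a replicate block and each library left out. The fit was tested on simulated counts. Promoters are RefSeq's (GRCm38.p6).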

Additional observations from a re-analysis of the deposited data

How the results depend on the processing

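The number of granule and calgranulin genes called for ligature in WT was 2 with library size alone, 2 without a filter on low counts, 4 by DESeq2 and 0 with a replicate block, against 1 in the analysis reported. With each library left out in turn it ranged from 0 to 2 in WT and from 2 to 4 in the mice labelled Cybb-/-, and the other settings gave 4 to 6 there. It was 0 between genotypes and for the interaction under every alternative. Over all genes the calls in WT numbered 481, with 1372 by DESeq2, 271 with the block and 27 to 737 with 1 library left out. In the mice labelled Cybb-/- the calls numbered 1954, with 2802 by DESeq2, 1573 with the block and 837 to 2949 with 1 library left out. Between the ligated groups they numbered 1, with 18 by DESeq2, 0 with only these groups fitted and 0 to 2 with 1 library left out, between the naive groups 1 (2 by DESeq2), and for the interaction 0 to 1. The ratio of S100a9 to S100a8 was 2.13, 1.86, 1.75 and 1.92 per kilobase (naive WT, naive labelled Cybb-/-, ligated WT, ligated labelled Cybb-/-). Libraries with the same replicate number mostly did not deviate together (correlations of deviations −0.228 to 0.277, 2 of 18 over 0.1). With deviations taken from means of 3 libraries, these values cannot show that no pairing existed. With the block S100a8 lost its call in WT (adjusted p = 0.0796), Ltf lost its call in the mice labelled Cybb-/- (adjusted p = 0.0824), and Chil3 turned to −0.15 between naive groups. Ltf also lost that call with DESeq2 size factors, with only the groups compared and with the robust fit (adjusted p 0.0505 to 0.0518).

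The direction was kept in every ligature value under every alternative that gave one. Requiring each library to reach 10 counts left out Camp, Ngp, Chil3 and Cd177, and with only the groups compared Camp gave no value in either genotype and Ngp and Cd177 gave none in WT. Leaving out 1 library turned 13 values without a call. Between the ligated groups these were Ltf (−1.09 to 0.043), Camp (−0.42 to 1.86) and Ngp (−0.50 to 1.56), and between the naive groups Ltf (−0.48 to 0.054), Chil3 (−0.83 to 1.27), Padi4 (−0.13 to 0.48) and Cd177 (−0.59 to 1.13). For the interaction they were S100a8 (−0.47 to 0.73), S100a9 (−0.29 to 1.00), Ltf (−0.78 to 0.35), Camp (−3.12 to 0.74), Ngp (−2.01 to 0.88) and Chil3 (−0.10 to 2.00). The cause was not tested. Having 3 libraries per group and few counts limits Camp, Ngp, Chil3, Mpo, Elane and Cd177.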
